A study of Caenorhabditis elegans with 8 samples.

Results

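Small RNA reads were compared at 10 genes of the CCCH zinc-finger type in the nematode Caenorhabditis elegans: oma-1, oma-2, moe-3, pos-1, mex-1, mex-5, mex-6, pie-1, ccch-1 and ccch-2. They were taken by gene name from the count files, which list 20191 genes, and all 10 were found. Whole animals of the wild-type strain N2 or of strain YY1683 were fed HT115 bacteria at 20 °C. YY1683 carries a mutation of zsp-1, which its genotype label spells zap-1(-) and the series title zsp-1(-); the allele is not given in the sources used here. The bacteria carried the empty vector L4440 or expressed oma-1 double-stranded RNA. Each of the 4 combinations has 2 libraries: wild type on L4440, wild type on oma-1 RNAi, zsp-1 mutant on L4440 and zsp-1 mutant on oma-1 RNAi. All animals ate the HT115 strain, so the L4440 groups share it with the RNAi groups. The stage label gives gravid adults on day 1, and the extraction text young adults.

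CCCH proteins bind RNA through zinc-coordinating motifs of 3 cysteines and a histidine. In the worm, OMA-1 and OMA-2 act redundantly in the last steps of oocyte maturation, and the MEX, POS and PIE proteins control maternal messenger RNAs and cell fate in the early embryo. When a worm eats double-stranded RNA, Dicer cuts it into primary small interfering RNAs (siRNAs), and RNA-dependent RNA polymerases then copy the target messenger RNA into abundant secondary siRNAs, the 22G RNAs named in the series title. ZSP-1 sits in the Z granule, a layer of the germ granule that is known for its role in inherited RNA interference. An RNAi trigger against one gene can also raise siRNAs at a gene of related sequence, which is called an off-target response.

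The libraries held 136908 to 340932 reads, so 1 read corresponds to 2.93 to 7.30 CPM before scaling. CPM are counts scaled to a library total of 1000000 reads, given from here on after TMM scaling of the libraries, and the strands of the reads are not separated in them. At zsp-1 itself, named pid-2 in the files, wild-type libraries had at least 57 reads and mutant libraries 2 to 14 (log2 change -3.53, adjusted p = 8.08e-10, edgeR). Genes used as markers of muscle held at most 0.00427% of reads in any library and those of intestine at most 0.00290%. Those of oocytes and germline held 0.222% to 0.331% of reads, and those of sperm 0.0311% to 0.196%, with means of 0.0580% and 0.0374% in wild type and 0.162% and 0.153% in the mutant on L4440 and oma-1 RNAi. The part of these sperm genes in the genotype comparisons was not tested. Small RNA reads at marker genes do not report cell types, so these shares do not measure how many cells of a type there were. In whole animals, a different number of cells cannot be told apart from a different amount of small RNA per cell. The labels do not tell whether the 2 libraries of a group are separate cultures, and p-values therefore cover only library-to-library spread, which may be technical.

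Of the 10 genes, 8 had enough reads to be tested among 4567 genes in one model. Among these 8, moe-3 had enough only through the oma-1 RNAi libraries, since its L4440 libraries had at most 1 read each. The other 2 of the 10, ccch-1 and ccch-2, were close to empty. ccch-1 had 1 read in a wild-type L4440 library and none in the other 7 libraries. ccch-2 had 0 of the 1790934 reads of all libraries together. This allows a pooled level of up to 1.68 CPM at 3 reads, here without TMM scaling. Such limits, and the intervals on reads given further on, cover counting error only.

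On L4440, oma-1 was one of the better covered members but not an abundant target of small RNAs. oma-1 lies on chromosome IV (8888976 to 8890999, plus strand, build WBcel235) and overlaps no other listed gene. Its exons cover 1801 bases. The wild-type L4440 libraries had 29 and 35 oma-1 reads and the mutant ones 42 and 20. These correspond to 181 ± 20.4 CPM for wild type against 152 ± 31.5 CPM for the mutant (SD, n = 2 each). By read number, oma-1 ranked between 999 and 1658 among all genes in these 4 libraries. The groups overlapped, and the log2 change in the mutant was -0.29 (95% interval -1.22 to 0.64, adjusted p = 0.792, edgeR's quasi-likelihood test).

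On oma-1 RNAi, oma-1 became the gene with the most reads in every library. Wild-type libraries had 5076 and 5789 reads, and mutant libraries 2541 and 3402. These are 1.83% and 2.15% of all reads in wild type and 1.11% and 1.97% in the mutant. The levels were 18074 and 22936 CPM in wild type and 11189 and 22978 CPM in the mutant, so 1 mutant library lay below the other 3. Neither genotype's RNAi libraries overlapped its L4440 libraries. In wild type the rise was 113-fold (log2 6.82, SE 0.47, adjusted p = 3.8e-10), and in the mutant 115-fold (log2 6.85, SE 0.47, adjusted p = 4.39e-10). Both p-values are from edgeR's quasi-likelihood test. Without the second mutant RNAi library the mutant value was 6.25, and it stayed called. Fragments of the ingested RNA cannot be told apart from siRNAs made in the animal, because the counts carry no read length, first base or strand.

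**Figure D1:**
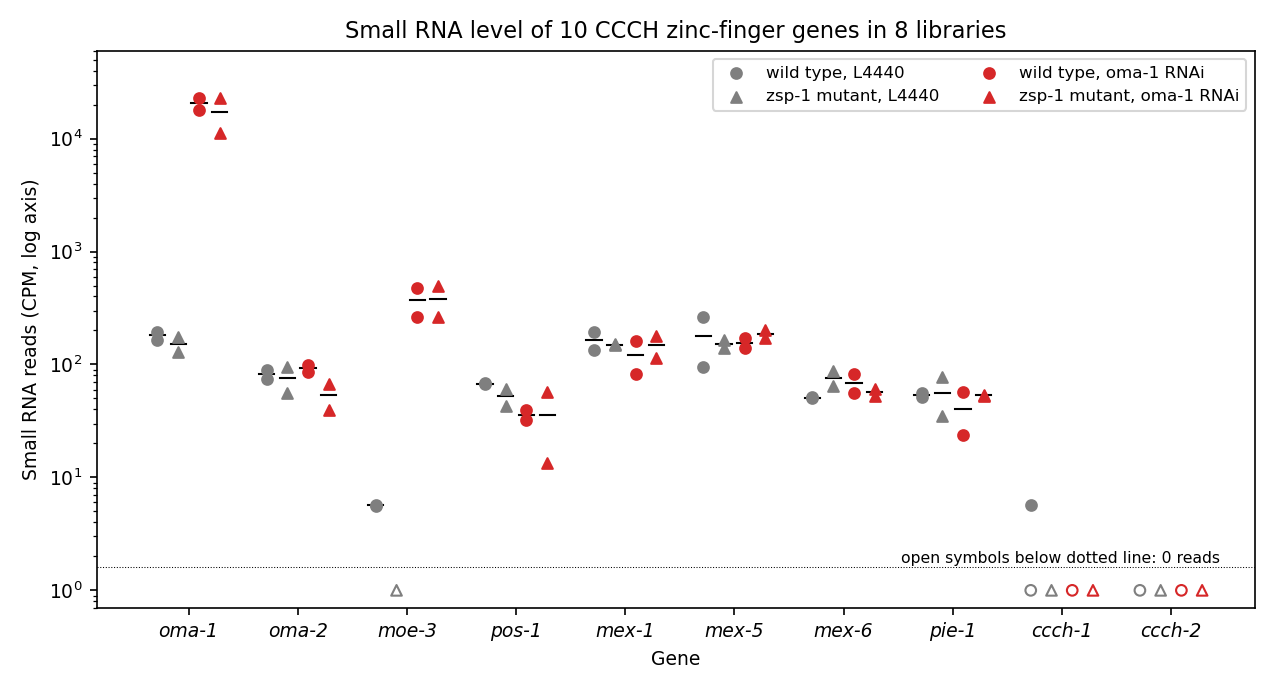
Small RNA level (CPM, log axis) of each of the 10 genes in each library; circles are wild type, triangles the zsp-1 mutant, grey L4440 and red oma-1 RNAi, and black bars are means of 2 libraries that both had reads. Open symbols below the dotted line stand for libraries with 0 reads. Only oma-1 and moe-3 show red symbols far above the grey ones.

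The second gene that responded was moe-3, another gene of the CCCH type. It lies on chromosome II (13160545 to 13165733, minus strand), on another chromosome than oma-1, and overlaps no other listed gene. Its exons cover 1307 bases. Wild-type L4440 libraries had 1 moe-3 read each, and the mutant ones had 0. On oma-1 RNAi, wild-type libraries had 74 and 121 reads (263 and 479 CPM) and mutant libraries 60 and 74 (264 and 500 CPM). moe-3 therefore went from 0 or 1 read to ranks between 356 and 742 among all genes.

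With so few reads on L4440, the size of this rise has wide limits. In wild type the pooled share of reads at moe-3 rose 65.0-fold (95% counting interval 17.7 to 540), and the model gave a log2 change of 5.89 (SE 0.64, adjusted p = 5.49e-06, edgeR). In the mutant, the L4440 libraries held 0 of 477840 reads. Set against an assumed floor of 3 reads in that group, moe-3 was 53.2-fold higher on RNAi. The lower 95% counting limit of the rise in its pooled share was 42.7-fold. The adjusted p of moe-3 in the mutant was 7.05e-07 (edgeR). Across the 14 alternative fits the highest adjusted p for moe-3 was 0.000223 in wild type and 0.000529 in the mutant. How reads with matches in several genes were counted is not given in the sources used here, and whether moe-3 reads also match oma-1 was not tested.

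oma-1 and moe-3 were the only genes of the 4567 called in either genotype, at an adjusted p under 0.05 in the fit to all 8 libraries. Without the second wild-type L4440 library 75 genes were called in wild type, and with the replicate number as a block 24 in wild type and 12 in the mutant, oma-1 and moe-3 included each time. The call rate was 0.0438% in wild type and 0.0438% in the mutant, all rises. At an unadjusted p under 0.05, 135 genes passed in wild type and 129 in the mutant. oma-1 and moe-3 also held the 2 largest fitted log2 changes in each genotype, where moe-3 was among the tested genes only through its RNAi reads. The third place was taken by npp-26 in wild type, with 0 reads on L4440 and 5 on RNAi, and by R05H11.2 in the mutant, with 0 and 6. Without the filter on low counts, 12819 genes were tested. In wild type 26 were called (0.203%), of which 5 rose (0.039%) and 21 fell (0.164%), and in the mutant 2 were called (0.0156%), again oma-1 and moe-3. The 3 extra genes in wild type were tep-1, fbxa-215 and F20D6.8. All 50 reads of F20D6.8 came from 1 library.

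**Figure D2:**
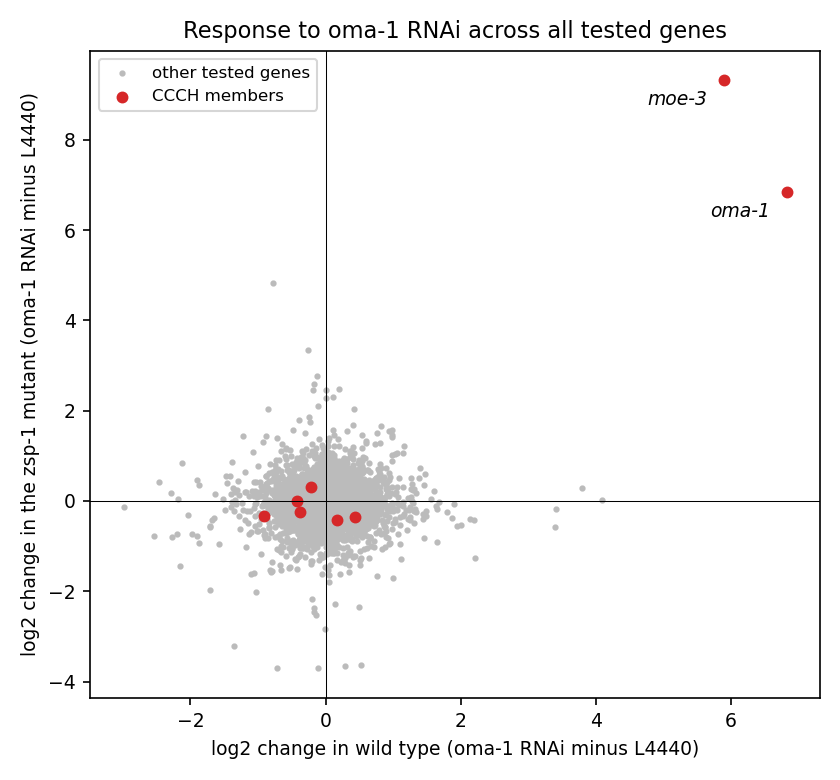
Fitted log2 change on oma-1 RNAi in wild type (horizontal axis) and in the zsp-1 mutant (vertical axis) for the 4567 tested genes in grey and the 8 tested CCCH genes in red. oma-1 and moe-3 stand alone at the upper right, and the other 6 lie in the cloud around 0; the vertical value of moe-3 is fitted against 0 L4440 reads and depends on the model's prior count.

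oma-2, the gene that acts redundantly with oma-1, did not pass the test in either genotype. It lies on chromosome V (8029439 to 8031214, plus strand), and its exons cover 1546 bases. Wild-type libraries had 13 and 16 reads on L4440 and 24 and 25 on oma-1 RNAi, or 81.8 ± 10.4 and 92.3 ± 9.61 CPM (SD, n = 2 each). Mutant libraries had 18 and 11 reads on L4440 and 9 and 10 on RNAi, or 75.8 ± 28.5 and 53.6 ± 19.7 CPM. The levels on the 2 foods overlapped in both genotypes.

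The interval of the oma-2 change did not reach that of moe-3. In wild type the log2 change of oma-2 was 0.17 with a 95% interval of -0.66 to 1.0, while that of moe-3 ran from 4.57 to 7.22. In the mutant the change was -0.42 (-1.40 to 0.55; adjusted p = 1, edgeR). Over the 14 alternatives the oma-2 change ran from 0.0067 to 0.34 in wild type and from -0.88 to -0.034 in the mutant. The value nearest 0 in the mutant was found without the first mutant RNAi library, with a SE of 0.58.

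The 5 remaining tested genes act mainly after fertilization, and none of them was called in a response. MEX-5 and MEX-6 are partly redundant proteins that set up the division of the zygote's cytoplasm into anterior and posterior parts. mex-5 lies on chromosome IV (13353723 to 13356104) and mex-6 on II (9524174 to 9526390). Levels are means ± SD of 2 libraries. In wild type mex-5 went from 179 ± 119 to 155 ± 22.3 CPM and mex-6 from 50.9 ± 1.0 to 68.7 ± 18.7 CPM. In the mutant mex-5 went from 152 ± 18.8 to 187 ± 21.8 CPM and mex-6 from 76.1 ± 15.8 to 56.8 ± 5.62 CPM. The wide spread of mex-5 in wild type on L4440 comes from libraries with 46 and 17 reads. Without the first of them the mex-5 response turned from -0.21 to 0.66.

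POS-1 regulates the translation of maternal messenger RNAs in the posterior of the embryo. pos-1 lies on chromosome V (8414085 to 8415254). It had 12 and 12 reads in wild type on L4440 and 9 and 10 on RNAi, or 67.8 ± 1.34 and 35.8 ± 5.36 CPM (SD, n = 2 each). These groups did not overlap, but the log2 change of -0.91 (-2.04 to 0.21) was not called (adjusted p = 0.999, edgeR). In the mutant pos-1 went from 52.2 ± 12.6 to 35.4 ± 30.9 CPM, with 13 and 2 reads in the RNAi libraries.

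MEX-1 is needed for normal cell fates in the embryo, and PIE-1 represses transcription in the cells that give rise to the germline. mex-1 lies on chromosome II (11968637 to 11972334) and pie-1 on III (12426862 to 12429195). The exons of mex-1 overlap those of acbp-6 over 25 of 1880 bases, and those of pie-1 overlap snr-6 over 24 of 1147 bases. acbp-6 and snr-6 lie on the opposite strand, so reads in these stretches could belong to them. mex-1 went from 164 ± 43.2 to 122 ± 54.5 CPM in wild type and from 150 ± 2.28 to 148 ± 46.5 CPM in the mutant, again as means ± SD of 2 libraries. pie-1 went from 53.7 ± 2.94 to 40.4 ± 23.5 CPM in wild type and from 56.1 ± 30.0 to 53.4 ± 0.84 CPM in the mutant. Both genes overlapped between foods in both genotypes.

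For oma-2 and these 5 genes together, log2 changes ran from -0.91 to 0.44 in wild type and from -0.42 to 0.31 in the mutant, and 0 of 6 had an unadjusted p under 0.05 in either genotype. Their median change was -0.30 and -0.29, beside 0.01 and -0.02 over all 4567 genes. In the fit to all 8 libraries, the upper ends of their 95% intervals reached 2.60-fold in wild type and 2.18-fold in the mutant. Besides oma-1 and moe-3, the RNAi libraries lay wholly above the L4440 libraries at mex-6 in wild type and at mex-5 in the mutant. They lay wholly below at pos-1 in wild type and mex-6 in the mutant. Among all tested genes, 13% lay wholly above and 12.5% wholly below in wild type, and 14.1% and 17.1% in the mutant. The summed level of the 6 genes was 471 to 705 CPM in the 8 libraries, and its groups overlapped between foods in both genotypes.

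**Figure D3:**
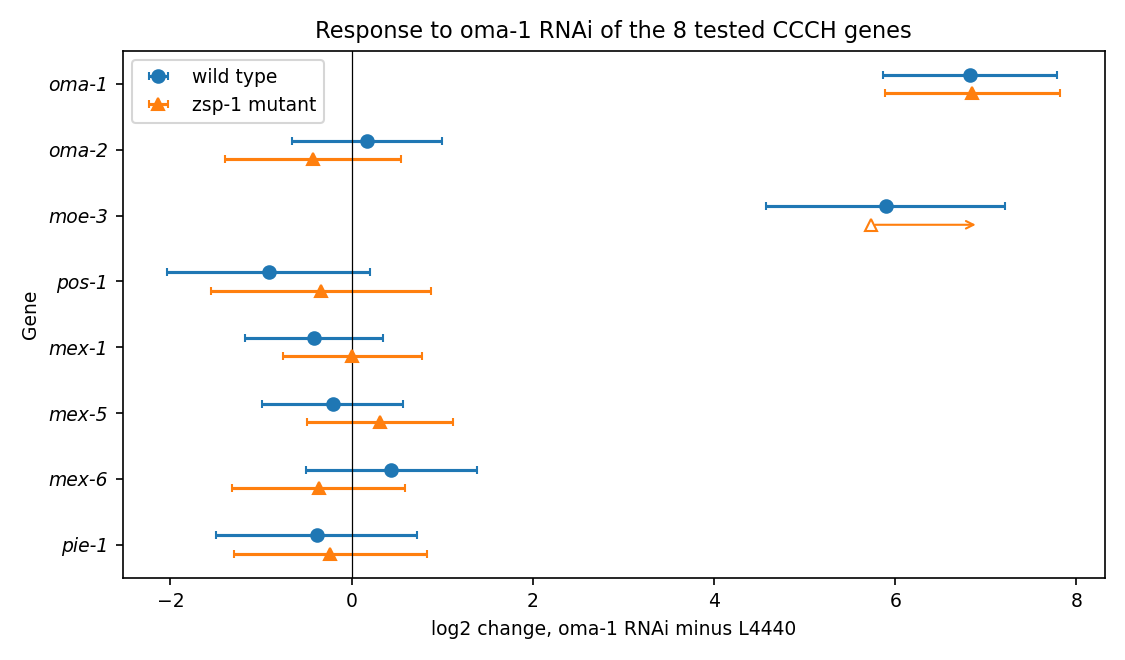
Log2 change on oma-1 RNAi against L4440 for the 8 tested genes, with 95% intervals, in wild type (circles) and the zsp-1 mutant (triangles). oma-1 and moe-3 lie near 6 to 7 and the intervals of the other 6 include 0. The open triangle with an arrow is moe-3 in the mutant against an assumed floor of 3 reads, and is not a confidence limit.

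The off-target share was then read as the number of reads at a gene per 100 oma-1 reads of the same library. For moe-3 it was 1.46 (exact 95% interval 1.1 to 1.83) and 2.09 (1.73 to 2.50) in the wild-type RNAi libraries. In the mutant it was 2.36 (1.80 to 3.05) and 2.18 (1.70 to 2.74). Wild type had a mean of 1.77 ± 0.45 and the mutant one of 2.27 ± 0.13 (SD, n = 2 each). Both mutant libraries lay above both wild-type libraries, and the exact permutation test gave p = 0.333, two-sided, which is the smallest that 2 against 2 libraries allow. Such a separation was not particular to moe-3: reads per oma-1 read lay wholly higher in the mutant at 23.3% of the 4566 tested genes (oma-1 left out), among them mex-5 (0.768 and 0.743 against 1.53 and 0.882 per 100), and wholly lower at 12.5%, oma-2 among them (0.473 and 0.432 against 0.354 and 0.294). After subtraction of the L4440 level of each gene, the means were 1.76 and 2.29.

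On L4440 the same ratio rests on very few moe-3 reads. Pooled over libraries it was 2 moe-3 to 64 oma-1 reads in wild type, or 3.13 per 100 (0.370 to 11.8), and 0 to 62 in the mutant, which allows up to 4.84 per 100 at 3 reads. The wild-type interval includes the RNAi values, so at this depth no difference in the ratio of moe-3 to oma-1 reads between foods was detectable. For oma-2 the ratio went from 45.3 per 100 (28.2 to 71.3) on L4440 to 0.451 (0.333 to 0.597) on RNAi in wild type, and from 46.8 (29.0 to 73.8) to 0.320 (0.192 to 0.500) in the mutant, where oma-1 was called as higher and oma-2 was not called.

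**Figure D4:**
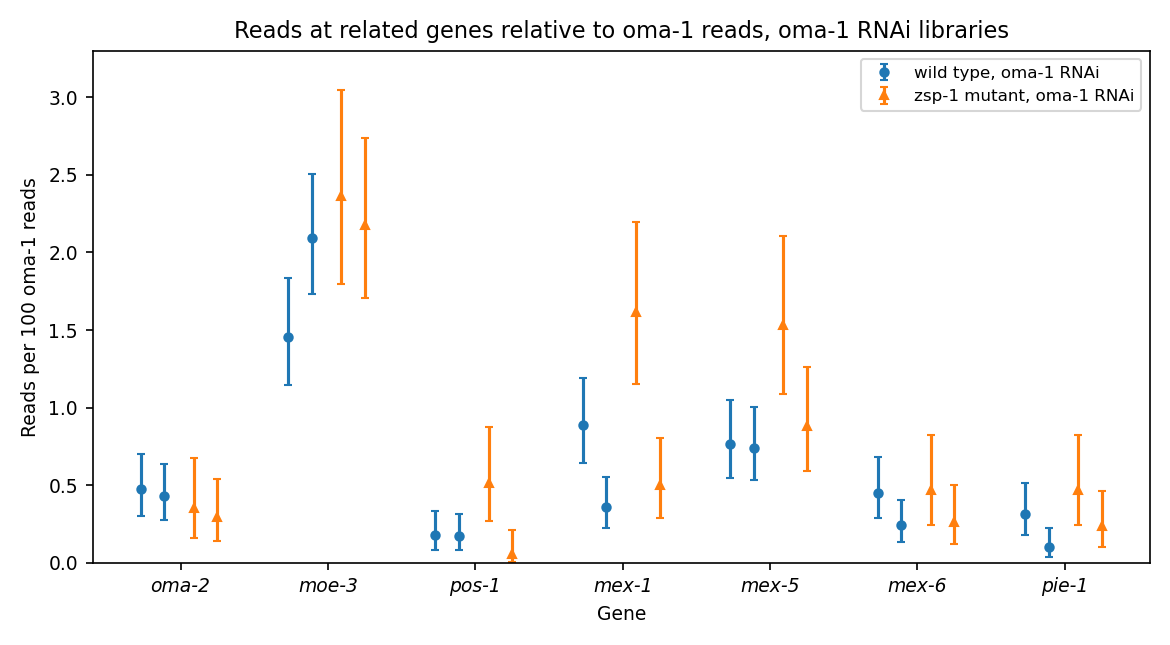
Reads at each of 7 related genes per 100 oma-1 reads in the 4 oma-1 RNAi libraries (blue circles wild type, orange triangles zsp-1 mutant), with exact 95% counting intervals. moe-3 has the highest value in every library, from 1.46 to 2.36; the other genes also had reads on L4440, which are not subtracted here.

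A gain over L4440 was also set against the gain of oma-1. moe-3 gained 366 CPM in wild type, where oma-1 gained 20324 CPM, or 1.80 CPM per 100 CPM of oma-1. In the mutant moe-3 gained 382 CPM and oma-1 16932 CPM, or 2.26 per 100. The gains of the 6 other tested genes lay between -0.21 and 0.0876 per 100 in wild type and between -0.131 and 0.205 in the mutant. Upper values were taken from the 95% interval of each fold change, with the L4440 level and the oma-1 gain held at their means. They were 0.0510 to 0.427 per 100 in wild type and 0.208 to 1.06 in the mutant. All lay below the gain of moe-3, which is given without an interval. The spread of the oma-1 gain is not included in them.

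Of the 4 genes beside oma-1 and moe-3, taken by position, the 2 that were tested did not pass the test in either response. C09G9.5, which ends 373 bases before oma-1, had 1 read in all 8 libraries. spr-2, which starts 466 bases after oma-1, had 3 and 10 reads in wild type on L4440 and 7 and 11 on RNAi, and 12 and 4 against 13 and 1 in the mutant. F32A11.1 lies on the other strand, 82 bases from moe-3 by the coordinates used for counting. In the Ensembl annotation moe-3 starts at 13160415, before the counted end of F32A11.1 at 13160462. F32A11.1 had 9 and 5 reads against 16 and 6 in wild type, and 9 and 3 against 7 and 6 in the mutant. W09H1.1, the neighbour on the other side of moe-3, had 0 reads in all 8 libraries.

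Levels of different genes were compared per kilobase of exon. In wild type on L4440, oma-1 had 100.3 ± 11.3 CPM per kilobase, mex-5 90.7 ± 60.5, mex-1 87.4 ± 23.0, pos-1 60.7 ± 1.195, oma-2 52.9 ± 6.71, pie-1 46.8 ± 2.56 and mex-6 26.4 ± 0.52 (SD, n = 2 each). The first 3 overlapped each other in turn, as did oma-2 and pie-1. moe-3 followed with 4.32 CPM per kilobase. On RNAi the order in wild type began with oma-1 at 11385 ± 1909 and moe-3 at 284 ± 117 CPM per kilobase, then mex-5 at 78.3 ± 11.3. The mutant had the same first 3 genes, at 9486 ± 4628, 292 ± 127 and 94.8 ± 11.1. On L4440 the mutant order began with oma-1, mex-1 and mex-5 at 84.5 ± 17.5, 79.7 ± 1.21 and 77.2 ± 9.52, which overlapped each other, and moe-3 was at 0.

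The genes whose level followed oma-1 most closely over the 8 libraries were found by Pearson's r of log2 CPM, as a description. moe-3, which was among the tested genes only through its RNAi reads, came first of 4566 genes (r = 0.994). vps-2 (0.982), set-9 (0.968), mec-15 (0.928) and repo-1 (0.881) came next. Their changes were far smaller: the log2 change of vps-2, for example, was 1.15 in wild type and 1.07 in the mutant, and none of these 4 was called. Such an r mainly contrasts the 4 RNAi with the 4 L4440 libraries. Among the members, r was 0.15 at mex-5, 0.00 at mex-6, -0.10 at oma-2, -0.30 at pie-1, -0.43 at mex-1 and -0.67 at pos-1.

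The response to oma-1 RNAi was then compared between the genotypes. On RNAi the log2 change of oma-1 in the mutant against wild type was -0.26 (95% interval -0.98 to 0.45, adjusted p = 0.788, edgeR), and that of moe-3 was 0.02 (-0.69 to 0.73, adjusted p = 0.989). The levels were 20505 ± 3438 and 17084 ± 8336 CPM for oma-1, and 371 ± 153 and 382 ± 167 CPM for moe-3 (SD, n = 2 each). Without the first mutant RNAi library the oma-1 value turned to 0.18, and with library totals that of moe-3 turned to -0.089. The difference of the 2 responses was 0.03 (-1.10 to 1.16) for oma-1. For moe-3 it was not estimated in a usable way, because both genotypes had at most 1 read per library on L4440. None of the 4567 genes was called in the difference (0% called; 113 had an unadjusted p under 0.05), and DESeq2 also called 0. The count was 1 without the filter, 2 with the replicate block and 6 without the second wild-type L4440 library, with no member among them.

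None of the 8 tested genes was called between the zsp-1 mutant and wild type. Averaged over both foods, 23.1% of all tested genes were called (11.3% higher and 11.8% lower). The call rate was 16.4% on L4440 and 15.7% on oma-1 RNAi, where 0 of 8 members were called as well. A count of 0 in 8 genes shows nothing about the members as a set, and moe-3 had at most 1 read per library on L4440. The mutant libraries lay wholly below the wild-type ones at moe-3 and pos-1 on L4440 (26.1% of all tested genes) and wholly above at mex-6 on L4440 (22.9%) and mex-5 on RNAi (21%). Averaged over foods, the log2 change was -0.54 (-1.18 to 0.10) for oma-2, -0.17 (-1.0 to 0.66) for pos-1 and 0.30 (-0.47 to 1.07) for pie-1. It was 0.00 (-0.56 to 0.57) for mex-5, 0.11 (-0.57 to 0.78) for mex-6 and 0.09 (-0.46 to 0.63) for mex-1. With library totals the last 3 turned to -0.12, -0.0083 and -0.031. The median over all tested genes was -0.08, and -0.19 with library totals, so these small values depend on the scaling.

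oma-2 came closest to a difference, on oma-1 RNAi. The 24 and 25 wild-type reads there compare with 9 and 10 mutant reads, which correspond to 85.5 and 99.0 CPM against 39.6 and 67.5 CPM. The groups did not overlap, as for 27.1% of all tested genes in this direction. The log2 change was -0.83 (-1.73 to 0.06) and did not pass (adjusted p = 0.270, edgeR). Over the 14 alternatives the adjusted p was 0.167 to 0.833.

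**Figure D5:**
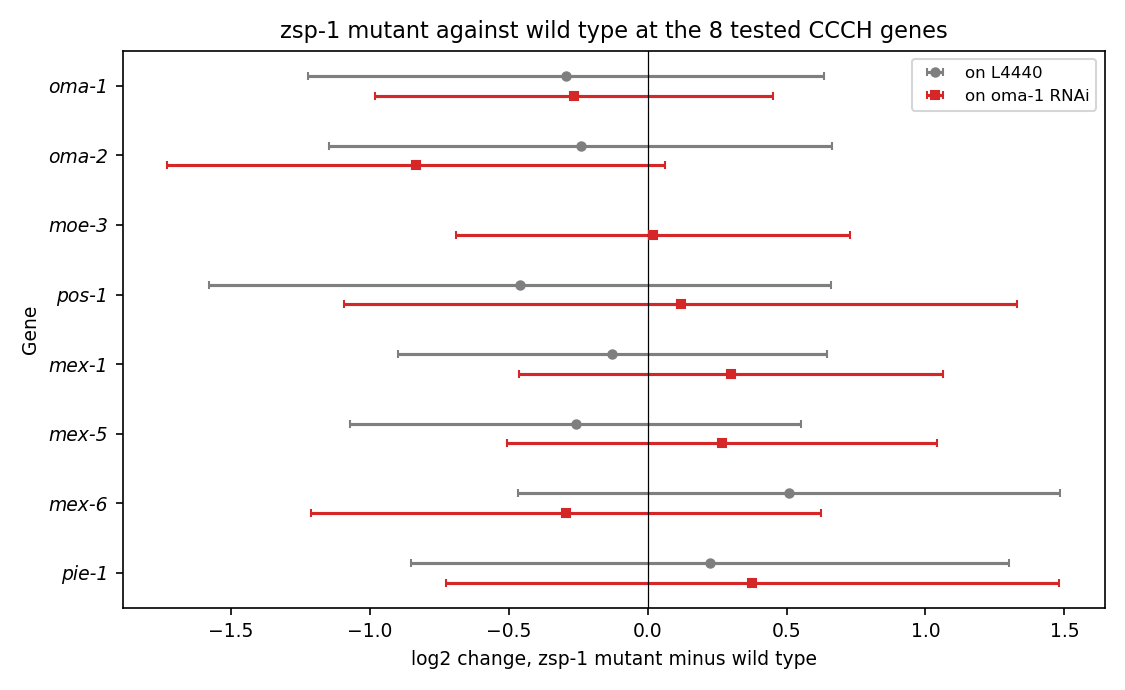
Log2 change in the zsp-1 mutant against wild type on L4440 (grey circles) and on oma-1 RNAi (red squares) for the 8 tested genes, with 95% intervals. Every interval includes 0; moe-3 on L4440 is not drawn because the libraries had 0 or 1 read.

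Genes that act with these proteins were described from 3 lists. The OMA list holds regulators, partners and messenger RNA targets of oocyte maturation and the switch to the embryo, such as lin-41, gld-1 and the kinase gene mbk-2. Of its 36 genes 33 were tested, and 0 were called in either response (0.0438% of all tested genes in each) or in the averaged genotype contrast (23.1% of all tested genes). The lowest p was at egg-4, a pseudophosphatase gene of the egg cortex, which went from 67.9 ± 9.33 to 39.4 ± 0.32 CPM on RNAi in wild-type animals (SD, n = 2 each, adjusted p = 0.999, edgeR). cey-2, a Y-box protein gene, had a log2 response of 0.58, and the PUF-family genes puf-5 and puf-7 had -0.39 and -0.40 in the averaged genotype contrast. The list's median was 0.07 and -0.06 in the responses and -0.0094 between genotypes, beside 0.0061, -0.024 and -0.078 over all tested genes.

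The list of partners of the polarity proteins holds PAR genes, kinases and maternal genes. Of its 19 genes 12 were tested and 0 were called in these 3 comparisons, with the same shares of 0.0438%, 0.0438% and 23.1% over all tested genes. The smallest p-values were at cul-2 (0.54 between genotypes, adjusted p = 0.157), which encodes the scaffold of a ubiquitin ligase, at pkc-3 (1.01 in the mutant response), at par-1 (-0.59 in the wild-type response) and at skn-1 (-0.56 in the wild-type response), all as log2 changes in edgeR. The median of the list was 0.0089 and 0.015 in the responses and -0.14 between genotypes, beside -0.078 over all tested genes in the latter.

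Of 13 entries on a list made for other CCCH genes, 11 genes were in the files and 4 were tested, and 0 were called in a response. The list was made by name, and whether each entry, suf-1 among them, encodes a CCCH protein was not checked. Y60A9.3, on the X chromosome (14383251 to 14383901), fell in the mutant, 1 of 4 tested where 11.8% of all tested genes were called lower. A count of 1 in 4 genes shows nothing about the list. Y60A9.3 had 17, 22, 28 and 51 reads in wild type and 7, 10, 8 and 8 in the mutant, in the order of L4440 and then RNAi libraries. With both foods pooled, the level went from 130.5 ± 49.1 to 49.5 ± 28.4 CPM (SD, n = 4 each), so these SDs include any difference between foods. The log2 change averaged over foods was -1.58 (SE 0.36, adjusted p = 0.0014, edgeR). The call held in all 14 alternatives, with an adjusted p of at most 0.0353. On oma-1 RNAi alone Y60A9.3 was also called (-1.78, adjusted p = 0.0110), and on L4440 alone it was not (-1.38, adjusted p = 0.0828). gla-3 (-0.39) between genotypes, suf-1 (-0.29) in the mutant response and ccch-3 (-0.22) in the wild-type response were not called. The median of the 4 was -0.03 and -0.07 in the responses and -0.23 between genotypes, beside -0.08 over all tested genes.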

How the data were processed

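Each of the 8 deposited files lists, for 1 library, raw counts of small RNA reads per gene, unnormalised. Per the labels' protocols, RNAs of 18 to 35 nt were cut from a gel of 20 µg total RNA and cloned by a method that does not need a 5′ monophosphate. The submitters' processing notes name cutadapt 1.14, featureCounts 1.6.0, TopHat2 2.1.1 and build WBcel235. For strand, length filters and reads with several matches, the sources used here give no settings, and reads of related sequences could be shared between genes.

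The counts went into edgeR 4.0.16 (R 4.3.3): filterByExpr with a minimum count of 10, TMM scaling, and one quasi-likelihood fit of 4 group means to all 8 libraries. P-values were adjusted by Benjamini-Hochberg over all 4567 tested genes and called under 0.05. SE is the absolute log2 change over the square root of F, and 95% intervals follow from it. Shares of reads have exact Clopper-Pearson intervals. Alternatives were DESeq2 1.42.0, other scalings, no filter, a replicate block and leaving out each library. The fit was tested on simulated counts. A planned comparison of transcript and protein sequences was not made.

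Members and lists were chosen with earlier results of these data known. Named besides the members are the 5 genes most like oma-1 and, from each list, up to 4 genes with the smallest p in a response or in the averaged genotype contrast. The neighbours, the third-placed genes and those called without the filter were added after their values were seen.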

Additional observations from a re-analysis of the deposited data

How the results depend on the processing

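oma-1 and moe-3 were called in both responses in all 14 alternative fits, and the other tested members in none of the 6 comparisons. Over all 14, the log2 response of oma-1 ran from 6.64 to 6.99 in wild type and 6.25 to 7.28 in the mutant. No called value changed its sign. Among uncalled values, 13 did. With library totals, the averaged genotype change became -0.031 at mex-1, -0.12 at mex-5 and -0.0083 at mex-6, and moe-3 on RNAi became -0.089. With oma-1 left out of the scaling mex-5 became -0.0016. Leaving out single libraries, the wild-type response ran from -0.73 to 0.66 at mex-5 and -1.15 to 0.082 at pie-1. The mutant response ran from -1.83 to 0.22 at pos-1, -0.38 to 0.27 at mex-1 and -0.53 to 0.62 at pie-1. The averaged genotype change ran from -0.89 to 0.14 at pos-1, -0.093 to 0.38 at mex-1, -0.25 to 0.48 at mex-5 and -0.10 to 0.69 at pie-1. The difference of the oma-1 responses ran from -0.58 to 0.45. On RNAi the genotype change ran from -0.85 to 0.18 at oma-1 and -0.46 to 0.53 at moe-3. The cause of these turns was not tested.

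The labels do not say that a replicate number marks a shared culture. Deviations of same-numbered libraries correlated between groups (r of 0.17 to 0.35 over 6 pairs of groups). With the replicate block the difference of the oma-1 responses was -0.11 and the averaged change of mex-5 -0.019. The block changed no member's call. Genes called in the wild-type response went from 2 to 24 with the block, 26 without the filter and 75 without the second wild-type L4440 library. In the mutant they went from 2 to 12 with the block and 3 without the first mutant RNAi library. In the difference they went from 0 to 2 (F46F2.4 and uaf-1) with the block, 1 (pals-26) without the filter and 6 without the second wild-type L4440 library. Between genotypes on L4440, 749 genes were called and 482 with DESeq2 or without the first mutant library. On RNAi 719 were called, 483 with DESeq2, and 462 and 467 without the second wild-type and first mutant library. Comparisons of sequences shared with oma-1 were not run. At this depth the 6 tested members other than oma-1 and moe-3 had 2 to 49 reads per library, which limits what changes could be seen.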
